A study of Mus musculus with 35 samples.

Results

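The fibrillar collagen genes described here are Col1a1, Col1a2, Col3a1, Col5a1, Col5a2, Col5a3 and Col11a1. They were taken by symbol from the deposited count tables, which list 55487 genes, and all 7 were found in each of the 4 tables. The study silenced IAMP, a micropeptide encoded in mice by 4930523C07Rik, in primary cardiac fibroblasts (CFs) and removed it from the mouse germline. RNA-Seq was done on 27 CF libraries and 8 hearts.

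The CFs came from adult mouse hearts by enzymatic digestion, were plated on collagen-coated plates and were grown in high-glucose DMEM with 10% fetal bovine serum. They were transfected with a scrambled siRNA (Scrambled) or with 1 of 2 siRNAs against IAMP (siR-1 and siR-2), and each of these groups had 3 libraries without a stimulus (untreated), 3 with IL-17 and 3 with TGF-β. The labels give 24 h of siRNA followed by 24 h of IL-17, and give no times for the untreated and TGF-β cells. Their strain, and whether the libraries of a group came from separate animals or cultures, were not given in the sources used here, so the p-values measure the spread between these libraries, which may be technical. The TGF-β samples are labelled adult fibroblast without naming the heart, and the study describes its TGF-β-treated knockdown cells as cardiac fibroblasts. The hearts were those of 8-week-old C57BL/6 mice under basal conditions, without surgery or a special diet. Of these mice, 4 were heterozygous (Het) and 4 homozygous (KO) for a CRISPR-Cas9 frameshift in the IAMP reading frame. The Het controls carry 1 copy of the mutation.

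Fibrillar collagens are built from 3 chains wound into a triple helix, and the helices pack side by side into the banded fibrils that carry load in the heart wall. Col1a1 and Col1a2 encode the 2 chains of type I collagen, the bulk of cardiac collagen. Col3a1 encodes the single chain of type III collagen, which forms finer fibrils together with type I. Col5a1, Col5a2 and Col5a3 encode chains of type V collagen and Col11a1 a chain of type XI collagen. Types V and XI are minor collagens that start fibrils and limit their width. Fibroblasts are the main source of these chains in the heart, TGF-β is the best-known inducer of type I collagen, and the balance of type I to type III is a common measure of cardiac fibrosis.

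In the GRCm38 annotation (GENCODE vM21), Col3a1 (ENSMUSG00000026043) runs along chromosome 1, plus strand, from 45311538 to 45349706, with 51 exons in its longest transcript. Col5a2 (ENSMUSG00000026042) lies on the minus strand of the same chromosome from 45374321 to 45503282, so that the ends of the 2 genes face each other across 24614 bases. Col1a1 (ENSMUSG00000001506) is on chromosome 11 from 94936224 to 94953042, and Col1a2 (ENSMUSG00000029661) on chromosome 6 from 4504814 to 4541544. Col5a1 (ENSMUSG00000026837) is on chromosome 2 from 27886425 to 28039514, Col5a3 (ENSMUSG00000004098) on chromosome 9 from 20770050 to 20815067, and Col11a1 (ENSMUSG00000027966) on chromosome 3 from 114030540 to 114220718. Col1a1 and Col11a1 overlap no other annotated gene, whereas each of the others overlaps 1 or 2 annotated genes that are not protein-coding. For Col1a2, Col3a1 and Col5a2 the overlapping gene is on the same strand, where strand cannot separate its reads from those of the collagen. For Col5a1 and Col5a3 the overlapping genes are on the other strand. The strand setting of the counting was not given in the sources used here, so their reads could not be told apart either.

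Col3a1 and Col1a2 are shown by their promoters, because their transcripts went opposite ways with siR-2 in untreated and IL-17 cells, as described below. With siR-1 both rose in these cells. The RefSeq table (GRCm38.p6) held a promoter for 5 of the 7 genes, and those of Col1a1 and Col5a2 were not used here. The 250 bases before the start are printed 5′ to 3′ on the gene's strand, with motif matches in capitals. The RefSeq start of Col1a2 lies inside the longer GENCODE gene given above.

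Col3a1 promoter, chr1:45311288-45311537, plus strand: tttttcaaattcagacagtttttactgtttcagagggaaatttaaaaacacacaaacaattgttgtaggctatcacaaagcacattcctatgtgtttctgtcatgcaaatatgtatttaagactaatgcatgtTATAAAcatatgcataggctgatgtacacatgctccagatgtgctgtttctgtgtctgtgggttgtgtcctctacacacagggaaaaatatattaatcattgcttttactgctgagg
Col1a2 promoter, chr6:4505368-4505617, plus strand: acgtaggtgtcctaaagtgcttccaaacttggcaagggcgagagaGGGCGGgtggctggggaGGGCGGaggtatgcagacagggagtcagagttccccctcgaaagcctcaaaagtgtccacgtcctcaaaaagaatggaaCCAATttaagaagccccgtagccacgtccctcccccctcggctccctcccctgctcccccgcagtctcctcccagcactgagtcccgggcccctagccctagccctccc

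The Col3a1 stretch holds TATAAA, beginning 117 bases before the start, and no CCAAT or GGGCGG. The Col1a2 stretch holds CCAAT beginning 109 bases before the start and GGGCGG beginning 205 and 188 bases before it, and no TATAAA. Both CCAAT and GGGCGG were searched on both strands and TATAAA on the gene's strand, and they occur in 33.8%, 32.7% and 7.59% of the 32851 RefSeq promoters cut to the same length. G and C make up 35.2% of the Col3a1 stretch and 62.0% of the Col1a2 stretch, against a median of 52.4% over all promoters. Counted on either strand, Col5a1, Col5a3 and Col11a1 each hold 2 GGGCGG, and Col5a3 and Col11a1 also a CCAAT. None of the 5 promoters holds TGAGTCA (4.46% of all promoters, both strands) or GTCTAGAC (0.167%), the letters searched for AP-1 and SMAD. Such matches are letters in a window and do not show that a factor binds there.

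Most of the collagen transcripts share a feature at their other end. miR-29 is a microRNA family of fibroblasts known to repress many collagen mRNAs, and its members share the seed AGCACCA, bases 2 to 8, in capitals here. The miRNAs themselves were not measured in these libraries.

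mmu-miR-29a-3p: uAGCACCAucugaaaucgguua
mmu-miR-29b-3p: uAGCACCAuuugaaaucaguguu
mmu-miR-29c-3p: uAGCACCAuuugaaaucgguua

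The matching letters, TGGTGCT, occurred in the 3′ UTR of the longest coding transcript of 6 of the 7 genes, at 12 places in all. Of all 20964 genes with an annotated 3′ UTR 13% held such a match, and of those with a 3′ UTR of 1000 to 4000 bases 18.7%. The 3′ UTRs of Col5a3 (785 bases), Col1a2 (882) and Col3a1 (959) are shorter than that class. Col5a1 had 4 matches, Col5a3 had 3, Col11a1 had 2 and Col1a1, Col3a1 and Col5a2 had 1 each. Col1a2 had none in its 882 bases. A match and its surroundings, 29 bases on the gene's strand, are shown for the genes that are compared most closely below. For Col5a3 it is 1 of the 3 matches and for Col11a1 it is 1 of the 2.

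Col3a1, chr1:45348971-45348999, plus strand: aaatgtctcaaTGGTGCTataataaataa
Col1a1, chr11:94952527-94952555, plus strand: gaaggaatttcTGGTGCTatagaagctga
Col5a3, chr9:20770493-20770521, minus strand: accaggcctttTGGTGCTattcctttcca
Col11a1, chr3:114219072-114219100, plus strand: ttggatttcgtTGGTGCTgtagaaaacaa

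The CF libraries held 104139670 to 119232309 estimated counts and the hearts 23497027 to 23857313 counts. No library was a copy of another. The log2 fold change of 4930523C07Rik for siR-1 and siR-2 was −2.97 and −3.69 in untreated CFs, −2.85 and −3.44 under IL-17 and −2.23 and −2.65 under TGF-β. In hearts it stood at 15.9 to 18.8 CPM in the Het and 15.2 to 17.2 CPM in the KO animals, and a frameshift need not remove the transcript, so that this level does not check the genotypes. All 10 fibroblast markers listed were above 1 CPM in every CF group, and 7 of 8 cardiomyocyte markers were below 1 CPM in every CF group. The exception was Tnnt2. The cardiomyocyte sum was 91.0 to 98.9 CPM in untreated Scrambled CFs, 42.4 to 47.0 in siR-1 and 27.5 to 32.3 in siR-2 cells. The sum of the 8 smooth muscle and pericyte markers was 244 to 246 CPM, 144 to 150 and 120 to 125 CPM in the same groups, with Kcnj8 and Abcc9 below 1 CPM in each. The fibroblast marker sum was 6139 to 6513, 6237 to 6390 and 7752 to 8064 CPM. Of the 10 fibroblast markers, 4 rose and 4 fell with siR-1 at an adjusted p of at most 0.05 in edgeR. With siR-2, 3 rose and 5 fell, where 39.9% and 49.3% of all genes passed with siR-1 and siR-2. The median log2 fold changes of the 10 were 0.06 and −0.15, so most of them did not share the higher siR-2 sum. Whether these marker shifts have a part in the collagen results was not tested, and in bulk RNA fewer cells of a type and less RNA per cell cannot be told apart.

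Levels are given as CPM, the count scaled to library size, after TMM scaling over all 27 CF libraries. The 7 genes together took up 1.46% ± 0.0134 (SD, n = 3) of the estimated counts in untreated Scrambled CFs. Col1a1 was at 3760 ± 55.3 CPM (SD, n = 3), Col1a2 at 3497 ± 78.9, Col3a1 at 2941 ± 122 and Col5a2 at 2626 ± 46.7. Col5a1 was at 986 ± 34.0 CPM, Col11a1 at 239 ± 3.78 and Col5a3 at 27.8 ± 0.136. Per kb of annotated exons the levels were 573 CPM per kb for Col1a1, 300 for Col3a1, 281 for Col1a2, 274 for Col5a2, 116 for Col5a1, 18.7 for Col11a1 and 4.08 for Col5a3. Per kb of the longest transcript, Col1a2 (654) and Col1a1 (634) came before Col3a1 (528) and Col5a2 (396). The order among these 4 abundant chains thus depended on the length used, whereas Col5a1, Col11a1 and Col5a3 followed in that order with either.

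Type III collagen mRNA had the largest rise of the 7 in the untreated knockdown. Col3a1 stood at 2947, 2815 and 3059 CPM in the 3 untreated Scrambled libraries, at 6049.9, 5482 and 5679 in siR-1 and at 8041, 8043 and 8080.1 in siR-2 libraries. Each siR-1 library lay above each Scrambled library, and each siR-2 library above each siR-1 library. In log2 terms siR-1 gave 0.97 (SE 0.0364, adjusted p = 3.45e-12) and siR-2 gave 1.45 (SE 0.0368, adjusted p = 1.17e-14), or 1.95-fold and 2.74-fold, in the quasi-likelihood test of edgeR, adjusted by Benjamini-Hochberg. Both comparisons use the same Scrambled libraries, and siR-2 was therefore also compared with siR-1 directly. It was higher by 0.49 (SE 0.0362, adjusted p = 7.75e-09 in edgeR).

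The type I chains went up with one siRNA and down with the other. Col1a1 was at 3779, 3803 and 3697 CPM in Scrambled libraries, at 5273, 5194 and 5347 in siR-1 and at 3206, 3393 and 3339 in siR-2 libraries. It changed by 0.49 on the log2 scale with siR-1 (SE 0.0267, adjusted p = 3.07e-10) and by −0.18 with siR-2 (SE 0.0267, adjusted p = 1.88e-05), both in edgeR. Col1a2 was at 3500.3, 3417 and 3575 CPM in Scrambled libraries, at 4808, 4624 and 4805 in siR-1 and at 2767, 2745 and 2842 in siR-2 libraries. Its log2 fold changes were 0.44 (SE 0.0286) and −0.33 (SE 0.0286). For both chains the 3 groups did not overlap, with siR-1 on top and siR-2 at the bottom, and siR-2 lay below siR-1 by 0.67 for Col1a1 and 0.77 for Col1a2 on the log2 scale.

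Among the type V chains, Col5a1 and Col5a3 went up with siR-1 and down with siR-2, and Col5a2 went up with both. Col5a1 rose by 0.50 on the log2 scale with siR-1 (SE 0.0291) and fell by 0.19 with siR-2 (SE 0.0291), from 946 to 1006 CPM in Scrambled libraries to 1373 to 1410 and 849 to 885 CPM. Col5a2, the neighbour of Col3a1, was at 2598, 2680.2 and 2600.3 CPM in Scrambled libraries, at 4452, 4463 and 4581 in siR-1 and at 2862, 2986 and 2942 in siR-2 libraries. It rose by 0.78 (SE 0.0265) and 0.16 (SE 0.0264), and of the 7 genes it was the one besides Col3a1 to rise with both. Col5a3, at 27.7 to 27.9 CPM in Scrambled libraries, rose by 0.25 with siR-1 (SE 0.0683, adjusted p = 0.00644 in edgeR) and fell by 0.31 with siR-2 (SE 0.0687, adjusted p = 0.000994 in edgeR).

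Col11a1, the type XI chain, fell with both siRNAs. Its values were 238, 243 and 236 CPM in Scrambled libraries, 194, 184 and 199 CPM in siR-1 and 141, 145 and 152 CPM in siR-2 libraries. The groups stepped down without overlap. On the log2 scale it changed by −0.31 with siR-1 (SE 0.0351, adjusted p = 1.68e-06 in edgeR) and by −0.71 with siR-2 (SE 0.0353, adjusted p = 3.34e-11 in edgeR).

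All 7 genes thus passed the test (adjusted p at most 0.05) with either siRNA in untreated CFs, siR-1 raising 6 and lowering 1, and siR-2 raising 2 and lowering 5. The test was passed by 39.9% of all 19669 genes tested with siR-1 and by 49.3% with siR-2, and by 45.5% for siR-2 against siR-1, where all 7 collagens passed, 1 higher and 6 lower. Asking also for a change of 2-fold or more, none of the 7 was left with siR-1, against 4.76% of all genes, and Col3a1 alone with siR-2, against 10.7%. Their median on the log2 scale was 0.49 for siR-1 and −0.19 for siR-2, beside −0.02 over all genes in each case.

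**Figure D1:**
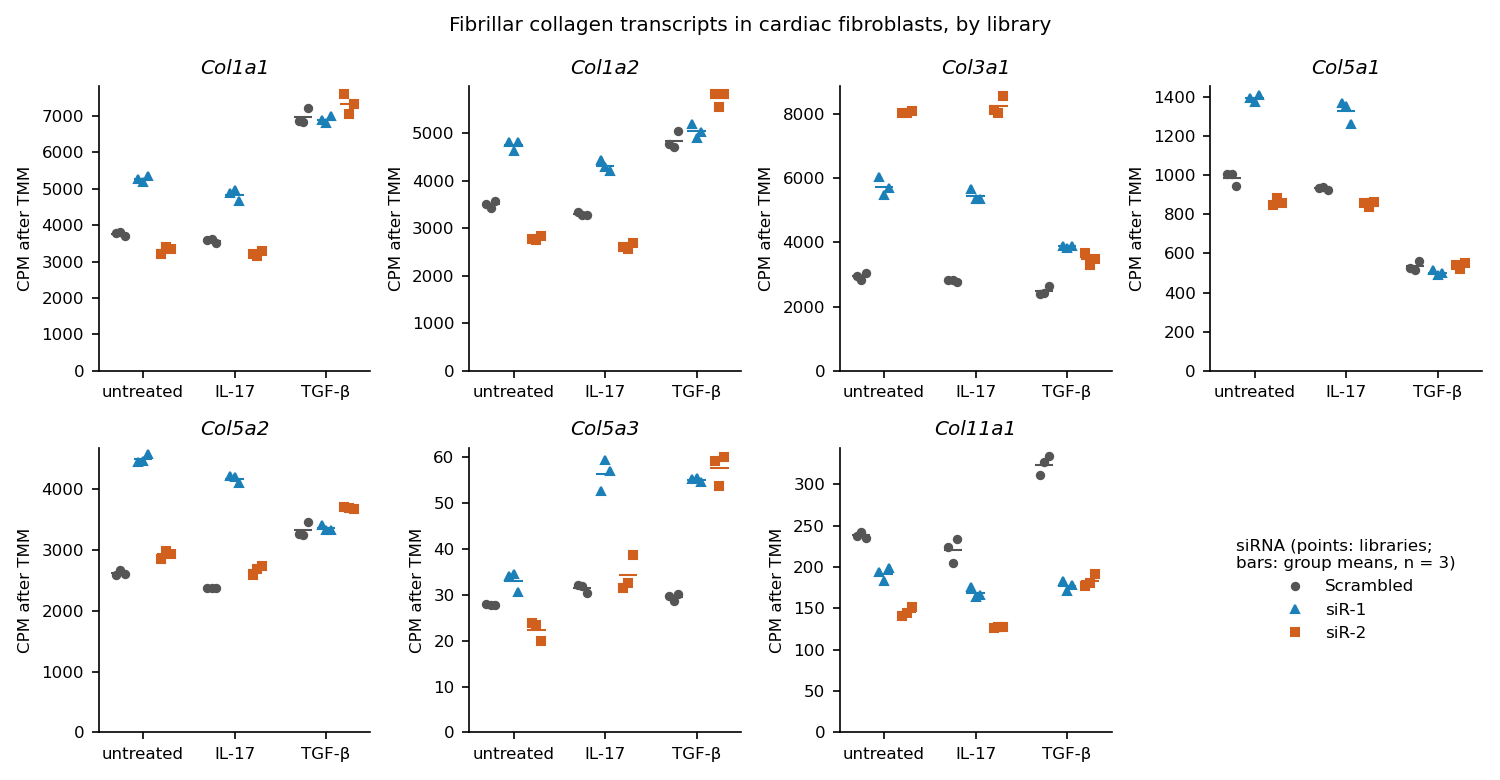
Level of each fibrillar collagen gene in the 27 CF libraries, as CPM after TMM scaling on a linear axis from 0, against the stimulus. Points are libraries, colour and shape give the siRNA, and bars are means of 3 libraries. Col3a1 lies between 2815 and 3059 CPM in untreated Scrambled libraries and between 8041 and 8080.1 with siR-2 in the same table, while the TGF-β libraries of both IAMP siRNAs reach at most 3900.5.

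With IL-17, a cytokine that drives inflammatory gene expression in fibroblasts, the knockdown gave values near those in untreated cells for 6 of the 7 collagens, Col5a3 being the exception. Col3a1 was at 2821, 2838 and 2775 CPM in Scrambled libraries, at 5652, 5346 and 5364 in siR-1 and at 8135, 8031 and 8562 in siR-2 libraries. The groups did not overlap, and the log2 fold changes were 0.96 (SE 0.0289, adjusted p = 9.06e-14) and 1.56 (SE 0.0293, adjusted p = 1.48e-16) in edgeR. Col1a1 rose by 0.44 with siR-1 and fell by 0.14 with siR-2, and Col1a2 rose by 0.39 and fell by 0.32. Col5a1 rose by 0.51 and fell by 0.12. Col5a2 rose with both, by 0.82 and 0.18, and Col11a1 fell with both, by 0.39 and 0.79.

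Col5a3, the least abundant of the 7, rose more steeply with siR-1 under IL-17. It was at 32.1, 31.9 and 30.3 CPM in Scrambled libraries, at 52.7, 59.4 and 57.1 in siR-1 and at 31.5, 32.5 and 38.8 in siR-2 libraries. Only the siR-1 libraries lay apart from the Scrambled ones. It was higher by 0.85 with siR-1 (SE 0.0663, adjusted p = 1.49e-08 in edgeR) and by 0.13 with siR-2 (SE 0.0664, adjusted p = 0.109 in edgeR). Without replicate 1 of the siR-2 group the latter was 0.18 and passed (adjusted p = 0.0442 in edgeR).

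In the IL-17 table all 7 collagens passed with siR-1, 6 higher and 1 lower, where 42.3% of 19906 genes passed. With siR-2, 6 of 7 passed, 2 higher and 4 lower, against 50.6% of all genes, and for siR-2 against siR-1 all 7 passed, against 46.2%. Asking also for a change of 1.5-fold or more, the study's threshold for IL-17, 3 collagens were left with siR-1 (Col3a1, Col5a2 and Col5a3, against 13.5% of all genes) and 2 with siR-2 (Col3a1 and Col11a1, against 21.7%). The median of the 7 was 0.51 for siR-1 and −0.12 for siR-2, beside −0.0026 and −0.02 over all genes.

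With TGF-β, the type I chains stayed closer to Scrambled with both siRNAs. Col1a1 was at 6858, 6833 and 7203 CPM in Scrambled libraries, at 6895, 6799 and 6995 in siR-1 and at 7595, 7060.3 and 7332 in siR-2 libraries. Both knockdown groups overlapped with Scrambled, though not with each other, and neither log2 fold change passed, at 0.0008 with siR-1 (SE 0.0350, adjusted p = 0.992) and 0.09 with siR-2 (SE 0.0350, adjusted p = 0.066) in edgeR. The siR-2 value passed in DESeq2 (0.08, adjusted p = 0.0489) and, in edgeR, with counts divided by 6 (0.09, adjusted p = 0.0323) and without a filter (0.09, adjusted p = 0.0329). Col1a2 stood 0.07 above Scrambled with siR-1 without passing (SE 0.0361, adjusted p = 0.169 in edgeR) and rose by 0.26 with siR-2 (SE 0.0361, adjusted p = 2.75e-05 in edgeR). Col5a1 did not pass, at −0.07 for siR-1 and 0.03 for siR-2.

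Col3a1 still rose in the TGF-β cells, by less. It was at 2393, 2410.4 and 2656 CPM in Scrambled libraries, at 3883, 3840.2 and 3900.5 in siR-1 and at 3659, 3303 and 3486 in siR-2 libraries. Here siR-1 gave the higher level, with no overlap among the 3 groups. It rose by 0.65 with siR-1 (SE 0.0427, adjusted p = 6.58e-09 in edgeR) and by 0.50 with siR-2 (SE 0.0427, adjusted p = 9.27e-08 in edgeR). siR-2 lay below siR-1 by 0.15 (SE 0.0426, adjusted p = 0.0135 in edgeR), a call that was lost without siR-1 replicate 3 (−0.15, adjusted p = 0.0512) or without siR-2 replicate 2 (−0.12, adjusted p = 0.0811).

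Col5a3 and Col11a1 had larger fold changes than Col3a1. Col5a3 was at 29.8, 28.5 and 30.2 CPM in Scrambled libraries, at 55.2, 55.5 and 54.6 in siR-1 and at 59.1, 53.8 and 60.1 in siR-2 libraries. It rose by 0.92 (SE 0.0506, adjusted p = 8.98e-10 in edgeR) and 0.98 (SE 0.0507, adjusted p = 2.05e-10 in edgeR). Col11a1 was at 311, 327 and 334 CPM in Scrambled libraries, at 184, 171 and 178 in siR-1 and at 177, 181 and 192 in siR-2 libraries. It fell by 0.85 (SE 0.0398) and 0.81 (SE 0.0398), and for both genes the 2 IAMP siRNA groups overlapped each other and lay apart from Scrambled. Col5a2 rose by 0.17 with siR-2 (SE 0.0326, adjusted p = 0.000676 in edgeR) and was at 0.03 with siR-1 (adjusted p = 0.621 in edgeR).

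Of the 7 collagens, 3 passed in TGF-β cells with siR-1, 2 higher and 1 lower, against 23.1% of 19891 genes. With siR-2, 5 of 7 passed, 4 higher and 1 lower, against 29.9%, and 3 of 7 for siR-2 against siR-1, against 24%. At 1.5-fold or more, 3 were left with siR-1 (Col3a1, Col5a3 and Col11a1, against 4.36% of all genes) and 2 with siR-2 (Col5a3 and Col11a1, against 7.51%). The medians of the 7 were 0.03 and 0.17, beside 0.0003 and 0.01 over all genes. The smooth muscle and pericyte marker sum was 215 to 236 CPM in Scrambled, 148 to 152 in siR-1 and 157 to 163 in siR-2 libraries here, and its part in these results was not tested.

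**Figure D2:**
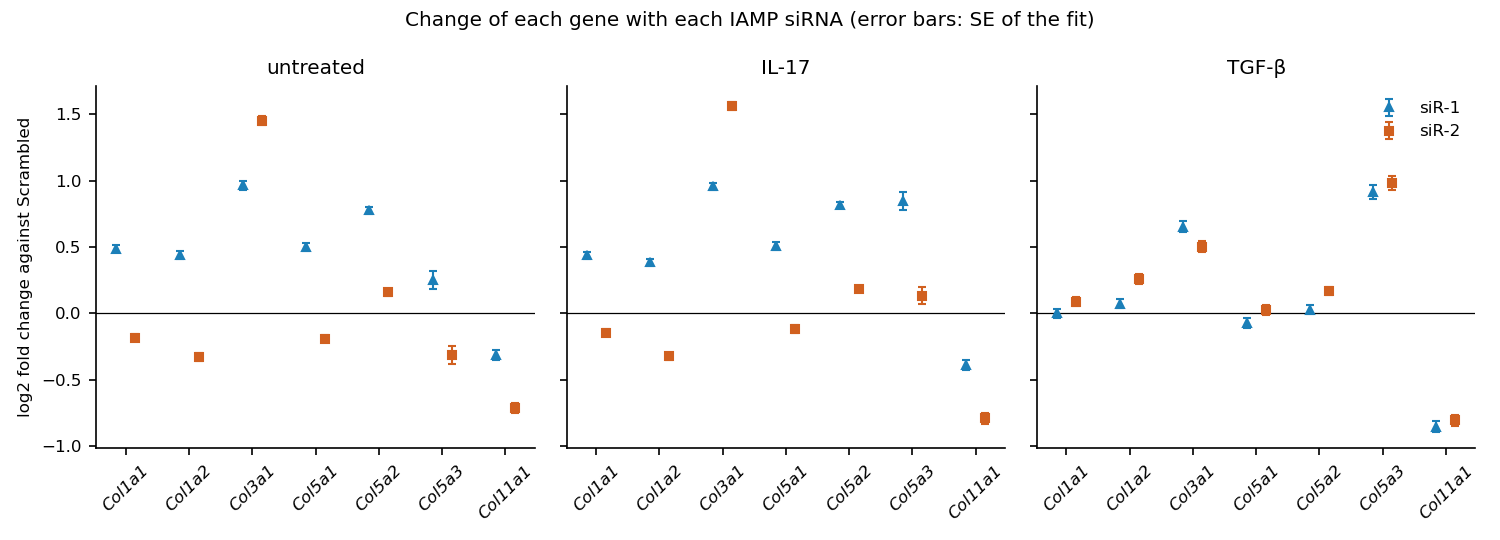
Log2 fold change of each collagen gene with siR-1 (triangles) and siR-2 (squares) against Scrambled, in 3 panels by stimulus. Error bars are the SE of the edgeR fit of 9 libraries and are often smaller than the symbol. Col3a1 lies above 0 and Col11a1 below 0 in every panel, and Col1a1 changes from 0.49 and −0.18 in untreated CFs to 0.0008 and 0.09 with TGF-β.

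Whether the knockdown effect itself differed between stimuli was tested as an interaction in 1 fit of all 27 CF libraries. Between IL-17 and untreated cells, 1 of 7 collagens passed with either siRNA, against 1.73% of 22359 genes with siR-1 and 1.64% with siR-2. That gene was Col5a3, whose effect was larger with IL-17 by 0.60 on the log2 scale for siR-1 (SE 0.0945, adjusted p = 0.000165 in edgeR) and by 0.45 for siR-2 (SE 0.095, adjusted p = 0.00526 in edgeR). For the other 6 the differences lay between −0.08 and 0.11.

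Between TGF-β and untreated cells, all 7 passed for siR-1 (1 higher and 6 lower, against 19.5% of all genes) and 5 of 7 for siR-2 (4 higher and 1 lower, against 29.5%). The siR-2 effect on Col3a1 was smaller by 0.97 (SE 0.0551, adjusted p = 3.4e-15 in edgeR), and the siR-1 effect by 0.32 (SE 0.055, adjusted p = 4.79e-05 in edgeR). The effect on Col1a1 shifted by −0.49 for siR-1 and by 0.25 for siR-2, and that on Col1a2 by −0.37 and 0.57. Both chains thus had effects of opposite sign in untreated cells and effects between 0.0008 and 0.26 with TGF-β. Col5a2 shifted by −0.76 for siR-1 (SE 0.0375) and by −0.01 for siR-2 (adjusted p = 0.917 in edgeR), Col5a3 by 0.66 (SE 0.0947) and 1.28 (SE 0.0952). Col11a1 shifted by −0.55 for siR-1 (SE 0.0585) and by −0.12 for siR-2 (adjusted p = 0.151 in edgeR). The fall of 4930523C07Rik was itself smaller with TGF-β, by 0.73 for siR-1 (SE 0.153) and 1.02 for siR-2 (SE 0.157), and the part of this in the collagen shifts was not tested.

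The stimuli were compared across tables, and a stimulus cannot be told apart from the table that holds it, since no table holds cells with and without it. More genes passed with TGF-β than with IL-17. In Scrambled cells, 6 of 7 collagens passed against untreated cells, 4 higher and 2 lower, where 55.5% of 22359 genes passed. Col1a1 was higher by 0.88 (SE 0.0298, adjusted p = 3.13e-22 in edgeR), Col1a2 by 0.46 (SE 0.03), Col11a1 by 0.43 (SE 0.0413) and Col5a2 by 0.33 (SE 0.0265). Col5a1 fell by 0.89 (SE 0.034, adjusted p = 6.1e-21 in edgeR), from 946 to 1006 CPM down to 517 to 562 CPM, and Col3a1 fell by 0.25 (SE 0.0389, adjusted p = 1.17e-06 in edgeR). Col5a3 was at 0.08 and did not pass (adjusted p = 0.362 in edgeR). The type I chains and the type V chain Col5a1 therefore went opposite ways, with no overlap between the tables.

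In the knockdown cells the same comparison gave other sizes. With siR-2, all 7 passed, 5 higher and 2 lower, against 55.5% of all genes. Col1a1 was higher by 1.13, Col1a2 by 1.03 and Col5a3 by 1.35, while Col3a1 fell by 1.22 and Col5a1 by 0.70. With siR-1, all 7 passed as well, 3 higher and 4 lower, against 55.4%. Col1a1 was higher by 0.39 and Col5a3 by 0.73, while Col5a1 fell by 1.47, Col3a1 by 0.57 and Col5a2 by 0.42. Col1a2, higher by 0.08 (adjusted p = 0.0177 in edgeR), lost its call without siR-1 TGF-β replicate 1 (0.06, adjusted p = 0.117) or siR-1 untreated replicate 2 (0.07, adjusted p = 0.103). Col11a1, lower by 0.12 (adjusted p = 0.0176 in edgeR), lost its call without siR-1 TGF-β replicate 2 (−0.09, adjusted p = 0.104) or siR-1 untreated replicate 1 (−0.11, adjusted p = 0.0552) or 3 (−0.09, adjusted p = 0.0929). The cardiomyocyte marker sum was 91.0 to 98.9 CPM in untreated and 5.35 to 6.22 CPM in TGF-β Scrambled libraries, with Tnnt2 the one marker above 1 CPM in both. The macrophage marker sum was 58.7 to 62.5 CPM in untreated and 158 to 165 CPM in TGF-β Scrambled libraries, with Ptprc and Cx3cr1 below 1 CPM in both, and the endothelial sum 56.6 to 62.5 and 108 to 111 CPM. Their part in these differences was not tested.

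The collagens other than Col5a3 differed little between IL-17 and untreated cells. Against untreated cells, 2 of 7 passed in Scrambled cells, both lower, where 12.2% of all genes passed. Col5a2 fell by 0.15 (SE 0.0265, adjusted p = 0.000103 in edgeR) and Col1a2 by 0.09 (SE 0.0299, adjusted p = 0.0489 in edgeR). The latter stood close to the threshold and was lost in 20 of the 27 fits with a library left out, as in the fit without Scrambled untreated replicate 3 (−0.07, adjusted p = 0.224), which left Col5a2 alone. With siR-1, 5 of 7 passed, 1 higher and 4 lower, against 14.6%, and with siR-2, 3 of 7, 1 higher and 2 lower, against 12.5%. The higher one was Col5a3 in both, by 0.77 with siR-1 (SE 0.0669) and 0.62 with siR-2 (SE 0.0675). In Scrambled cells Col5a3 was higher by 0.17 and did not pass (adjusted p = 0.0955 in edgeR). Every other passed value with IL-17 was a fall of at most 0.19 on the log2 scale.

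**Figure D3:**
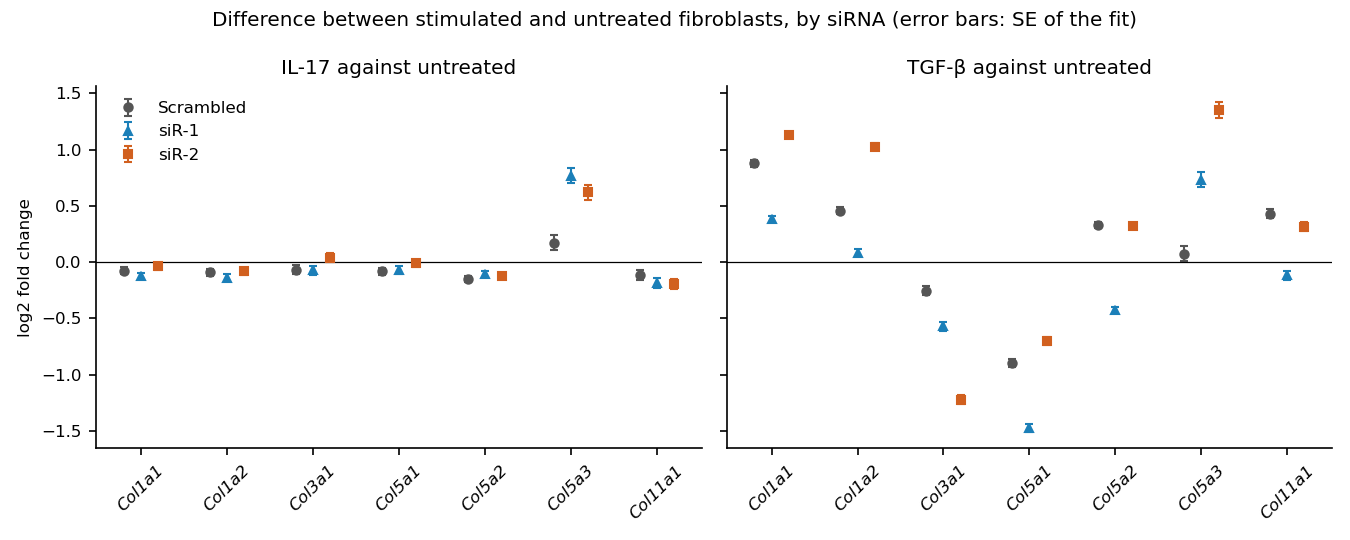
Log2 fold change of each collagen gene between IL-17 and untreated CFs (left) and between TGF-β and untreated CFs (right), for Scrambled (circles), siR-1 (triangles) and siR-2 (squares), with the SE of the fit of 27 libraries. With IL-17 all genes but Col5a3 lie between −0.19 and 0.04, whereas with TGF-β Col1a1 lies at 0.88, 0.39 and 1.13 and Col5a1 at −0.89, −1.47 and −0.70.

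Seen across the 9 CF groups, Col3a1 and Col1a1 had different orders. Col3a1 was highest with siR-2 and IL-17 (8243 ± 281 CPM, SD, n = 3) and siR-2 untreated (8055 ± 21.8), then siR-1 untreated (5737 ± 288) and siR-1 with IL-17 (5454 ± 172). The TGF-β groups of siR-1 (3874 ± 30.9) and siR-2 (3483 ± 178) followed, and the Scrambled groups came last, untreated (2941 ± 122), IL-17 (2811 ± 32.4) and TGF-β (2487 ± 147). Untreated and IL-17 libraries of the same siRNA overlapped each time, and the other neighbours in that order did not. Col1a1 was highest in the 3 TGF-β groups, siR-2 (7329 ± 267), Scrambled (6965 ± 206) and siR-1 (6897 ± 97.9), of which Scrambled overlapped with each of the others while siR-2 and siR-1 did not overlap. It then went down from siR-1 untreated (5271 ± 76.5) and siR-1 with IL-17 (4836 ± 153) over Scrambled untreated (3760 ± 55.3) and Scrambled with IL-17 (3575 ± 60.9) to siR-2 untreated (3313 ± 96.4) and siR-2 with IL-17 (3215 ± 75.8), and only the last pair overlapped.

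The balance of type III to type I was followed within each library as a ratio of deposited counts, which needs no scaling between libraries. The ratio is not per length, so only its change between groups is read. Col3a1 to Col1a1 was 0.780, 0.740 and 0.827 in untreated Scrambled libraries, 1.15, 1.06 and 1.06 in siR-1 and 2.51, 2.37 and 2.42 in siR-2 libraries. With IL-17 it was 0.788, 0.781 and 0.790, then 1.16, 1.08 and 1.15, then 2.53, 2.56 and 2.60. With TGF-β it was 0.349, 0.353 and 0.369, then 0.563, 0.565 and 0.558, then 0.482, 0.468 and 0.475. In each table the Scrambled libraries were lowest without overlap, and siR-2 was above siR-1 except with TGF-β.

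Averaged over the 3 tables, the log2 ratio of Col3a1 to Col1a1 was higher than in Scrambled by 0.55 with siR-1 (SE 0.0243) and by 1.25 with siR-2 (SE 0.02). Labels permuted within tables gave an exact two-sided p = 0.00025 in both cases, the smallest these permutations can give (adjusted p = 0.000375 over 6 tests). Col3a1 to Col1a2 was higher by 0.56 (SE 0.0158) and 1.30 (SE 0.0134), with the same exact p. Col1a2 to Col1a1 was lower by 0.01 with siR-1 (exact permutation p = 0.71) and by 0.05 with siR-2 (exact permutation p = 0.258). Single tables hold 3 against 3 libraries and cannot go below an exact p of 0.1. In them the siR-2 shift of Col3a1 to Col1a1 was 1.64 untreated, 1.70 with IL-17 and 0.41 with TGF-β, and that of siR-1 was 0.48, 0.52 and 0.66. Col1a2 to Col1a1 went down with siR-2 in untreated cells (−0.15) and with IL-17 (−0.18) and up with TGF-β (0.17), so that its mean over tables hides opposite values.

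In TGF-β against untreated cells, averaged over the siRNA groups, Col3a1 to Col1a1 was lower by 1.48 on the log2 scale (SE 0.0235). Col3a1 to Col1a2 was lower by 1.20 (SE 0.0172). Col1a2 to Col1a1 was lower by 0.28 (SE 0.0168), and the exact permutation p was 0.00025 for all 3 (adjusted p = 0.0005 over 6 tests). The shift of Col3a1 to Col1a1 was −1.13 in Scrambled, −0.95 in siR-1 and −2.36 in siR-2 cells. With IL-17 the shifts were 0.05 for Col3a1 to Col1a1 (exact permutation p = 0.0773), 0.07 for Col3a1 to Col1a2 (exact permutation p = 0.0025, adjusted p = 0.00375) and −0.02 for Col1a2 to Col1a1 (exact permutation p = 0.154).

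**Figure D4:**
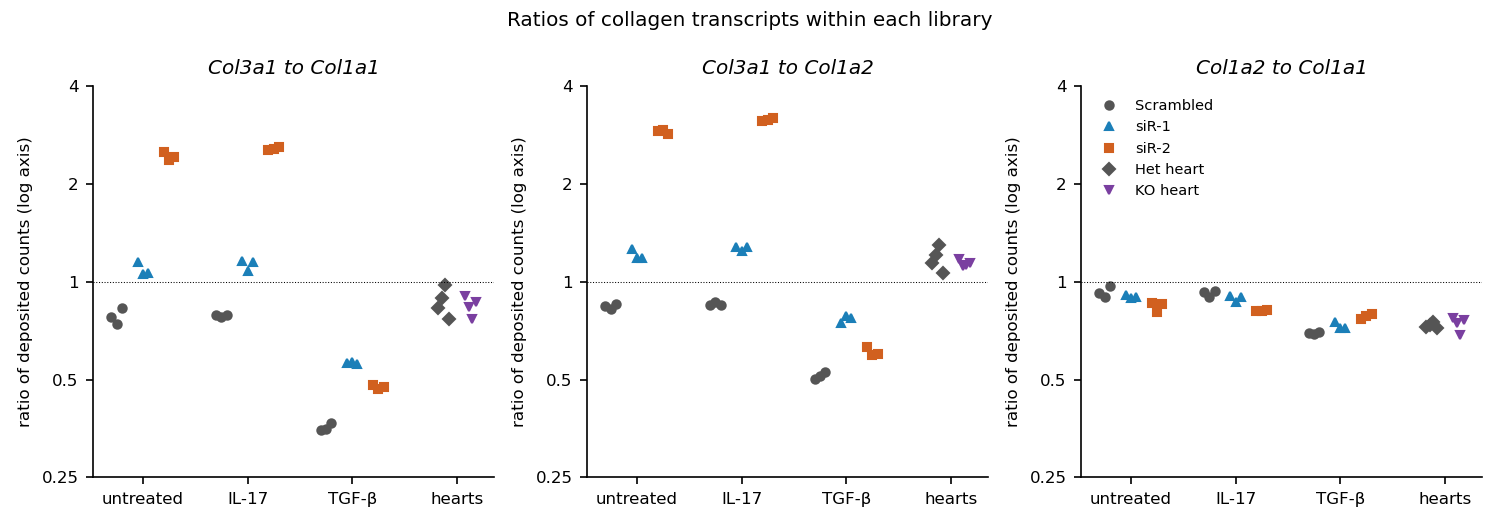
Ratio of deposited counts of Col3a1 to Col1a1, Col3a1 to Col1a2 and Col1a2 to Col1a1 in each of the 35 libraries, on a log axis, with the dotted line at a ratio of 1. Circles are Scrambled, triangles siR-1, squares siR-2, diamonds Het hearts and inverted triangles KO hearts. With siR-2 Col3a1 to Col1a1 lies between 2.37 and 2.60 in untreated and IL-17 libraries and between 0.468 and 0.482 with TGF-β, while Col1a2 to Col1a1 stays between 0.685 and 0.967 throughout.

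In hearts the fibrillar collagens were a small share of the counts, 0.0427% ± 0.00787 (SD, n = 4) in Het and 0.0403% ± 0.00229 (SD, n = 4) in KO animals. The sample labels of the hearts give a genotype and no animal number that would tie a column to a sample, and the animals are lettered a to d here in the order of the columns. Col1a1 was at 127, 101, 133 and 152 CPM in the Het and at 127, 117, 133 and 116 CPM in the KO hearts. Col3a1 was at 106, 89.5, 129 and 117 CPM in the Het and at 115, 98.1, 102 and 100.3 CPM in the KO hearts. Col1a2 was at 92.4, 74.1, 99.97 and 109.97 CPM in the Het and at 97.98, 87.7, 91.2 and 87.97 CPM in the KO hearts. The genotypes overlapped for each of them, and the Het hearts spread wider.

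KO differed from Het by −0.06 for Col1a1 (SE 0.112), −0.05 for Col1a2 (SE 0.106) and −0.09 for Col3a1 (SE 0.103) on the log2 scale. Col5a1 was at −0.06 (SE 0.0914), Col5a2 at −0.01 (SE 0.118) and Col5a3 at −0.10 (SE 0.131), so that each value was smaller than its SE. None of the 6 collagens tested passed in edgeR (adjusted p = 1 for each after rounding to 3 digits), none had an unadjusted p under 0.05, and none passed in DESeq2. The test was passed by 0% of 16675 genes in edgeR, of which 601 had an unadjusted p under 0.05, and by 5 genes in DESeq2. Col11a1 had 3 to 5 counts in the Het and 3 to 7 in the KO hearts, was left out by the filter and was not tested in the main fit. It was at 0.02 in DESeq2 (SE 0.71) and at 0.02 in edgeR without a filter (SE 0.422), and passed in neither.

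The same hearts bounded the range for most of the collagens. Heart d of the Het group was the highest of all 8 for 5 of the 7 collagens and heart b the lowest for 6. Their fibroblast marker sums were 1004 and 693 CPM, the highest and lowest of all 8, with all 10 markers above 1 CPM. In KO hearts that sum was 871 to 916 CPM. Whether the content of fibroblasts has a part in this was not tested. Without Het heart d the difference was 0.04 for Col1a1, 0.04 for Col1a2, 0.02 for Col5a1 and 0.08 for Col5a2, the opposite direction from that with all animals, and still did not pass.

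The ratio of type III to type I did not separate the genotypes. Col3a1 to Col1a1 was 0.833, 0.889, 0.974 and 0.768 in Het and 0.907, 0.836, 0.769 and 0.868 in KO hearts (log2 difference −0.03, exact permutation p = 0.771). Col3a1 to Col1a2 differed by −0.05 (exact permutation p = 0.514) and Col1a2 to Col1a1 by 0.01 (exact permutation p = 0.8), where 4 against 4 animals can reach 0.0286.

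**Figure D5:**
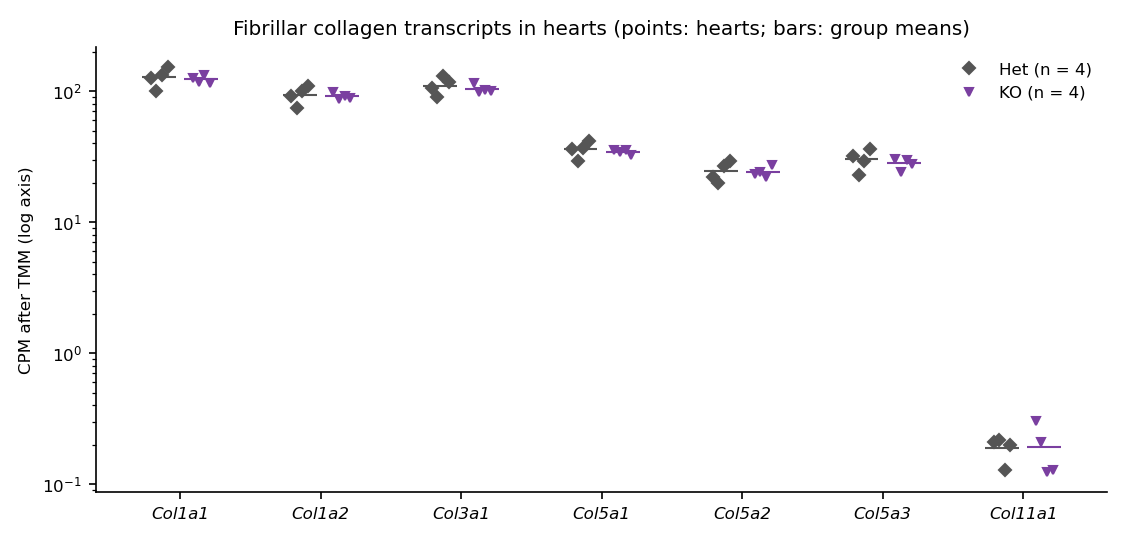
Level of each fibrillar collagen gene in 4 Het (diamonds) and 4 KO (inverted triangles) hearts, as CPM after TMM scaling on a log axis, with bars at the group means. The genotypes overlap for all 7 genes, and Col11a1 lies between 0.123 and 0.304 CPM, which is 3 to 7 counts.

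The chains are made and modified by dedicated enzymes before they leave the cell, and these genes went both ways. Of 23 hydroxylase, chaperone and secretion genes, 12 rose and 6 fell with siR-1 in untreated CFs, and 5 rose and 9 fell with siR-2. That is 18 and 14 of 23, where 39.9% and 49.3% of all genes passed in either direction, and the counts of the lists that follow are to be read against the same shares in untreated CFs. The median of the list on the log2 scale was 0.10 for siR-1 and −0.06 for siR-2, beside −0.02 over all genes. P4hb, the shared subunit of the prolyl 4-hydroxylases, rose by 0.55 and 0.34 in untreated CFs, by 0.61 and 0.41 with IL-17 and by 0.09 and 0.24 with TGF-β (siR-1 and siR-2 in each pair). P3h2, a prolyl 3-hydroxylase, fell by 0.61 and 1.19, by 0.76 and 1.34, and by 0.36 and 0.75. P3h3, another member of that family, fell by 0.15 and 0.51, by 0.10 and 0.48, and by 0.20 and 0.13. The smallest of these calls, P4hb with siR-1 and TGF-β (adjusted p = 0.0341 in edgeR) and P3h3 with siR-1 and IL-17 (adjusted p = 0.0477 in edgeR), were lost in 5 and 6 of the 9 fits with a library left out. The latter was also lost without a filter (adjusted p = 0.0541) and with the 2 compared groups alone (adjusted p = 0.0859).

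Once secreted, procollagen is trimmed by propeptidases. Of the 9 genes of this list tested in untreated CFs, 5 rose and 2 fell with siR-1, and 1 rose and 5 fell with siR-2, with medians of 0.33 and −0.27. Adamts14, a procollagen N-propeptidase, fell by 1.43 and 2.53 in untreated CFs and by 0.60 and 1.97 with IL-17. With TGF-β it was at −0.09 and −0.17 and did not pass. Pcolce2, which enhances C-propeptide removal, rose by 0.33 and 0.28 untreated and by 0.38 and 0.27 with IL-17. Its relative Pcolce fell by 0.12 and 0.27 untreated and by 0.18 and 0.23 with TGF-β. With siR-1 untreated its call (adjusted p = 0.0266 in edgeR) was lost without Scrambled replicate 3 (−0.06) or siR-1 replicate 2 or 3 (−0.11 in each), and with the 2 compared groups alone (−0.11, adjusted p = 0.0543).

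Genes of fibril assembly and crosslinking numbered 19, of which 9 rose and 5 fell with siR-1 and 5 rose and 8 fell with siR-2 in untreated CFs (medians 0.08 and −0.15). Fmod, encoding fibromodulin, which binds type I fibrils, fell in all 6 comparisons, between 0.51 and 0.95. Loxl2, a crosslinking amine oxidase, fell by 0.34 and 1.15 untreated, by 0.37 and 1.20 with IL-17 and by 0.48 and 0.64 with TGF-β. Tnxb, encoding the matrix protein tenascin-X, rose in all 6, between 0.75 and 1.18.

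Of the genes of collagen breakdown and uptake, more rose than fell in each comparison of an siRNA with Scrambled. The list also holds the metalloproteinase inhibitors Timp1, Timp2 and Timp3, so its counts are not those of breakdown genes alone. Of 16 genes, 9 rose and 1 fell with siR-1 and 9 rose and 3 fell with siR-2 in untreated CFs, with medians of 0.31 and 0.46 beside −0.02 over all genes. With IL-17, 11 rose with either siRNA and 1 and 3 fell (medians 0.56 and 0.47), and with TGF-β 9 and 7 rose and 0 and 1 fell (medians 0.25 and 0.24). Of all genes, 42.3% and 50.6% passed with IL-17 and 23.1% and 29.9% with TGF-β. Mmp13 and Mmp8, both collagenases, rose in all 6 comparisons. Mmp13 rose by 1.51 and 1.67 untreated, by 2.30 and 2.54 with IL-17 and by 1.61 and 1.98 with TGF-β. Mmp8 rose by 2.10 and 2.12, by 2.32 and 2.60, and by 0.86 and 0.57. Mmp1b rose by 2.42 and 0.97, by 3.51 and 2.22, and by 0.89 and 0.98.

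Of 9 collagen receptor genes tested, 4 rose and 1 fell with siR-1 and 2 rose and 5 fell with siR-2 in untreated CFs (medians 0.07 and −0.71), beside 39.9% and 49.3% of all genes passing in either direction. Itga1, the integrin subunit that pairs with Itgb1 to bind collagen, fell by 0.64 and 0.76 untreated and by 0.70 and 0.81 with IL-17. Itga2 rose by 1.61 with siR-2 untreated and was at 0.07 with siR-1 (adjusted p = 0.662 in edgeR). With IL-17 it rose by 1.23 with siR-2 and was at 0.14 with siR-1 without passing. With TGF-β it rose with both, by 0.50 and 0.58, and the siR-1 call (adjusted p = 0.0136 in edgeR) was lost without Scrambled replicate 1 (0.34) or 2 (0.49) or siR-1 replicate 3 (0.43). Itga10 fell by 1.01 with siR-2 untreated and was at −0.32 with siR-1 (adjusted p = 0.0881 in edgeR). With IL-17 it fell with both, by 0.64 and 1.14, and with TGF-β it was at 0.28 and −0.31 and did not pass.

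Among 18 genes of TGF-β ligands, receptors, SMADs and their targets, 4 rose and 5 fell with siR-1 and 5 rose and 11 fell with siR-2 in untreated CFs (medians −0.01 and −0.18). Tgfb2 and Tgfb3, both TGF-β ligands, fell in all 6 comparisons, Tgfb2 between 0.33 and 0.91 and Tgfb3 between 0.54 and 0.89. Smad6, an inhibitory SMAD, fell by 0.34 and 1.36 untreated, by 0.28 and 1.33 with IL-17 and by 0.28 and 0.68 with TGF-β. Of the 4 remaining fibrillar collagen genes (Col2a1, Col11a2, Col24a1 and Col27a1), 0 rose and 1 and 3 fell with siR-1 and siR-2 untreated. Col27a1 fell in all 6 comparisons, between 0.77 and 1.05. In hearts no gene of these 7 lists passed in edgeR, where 0 of all 16675 genes tested passed, so this says nothing particular to the lists.

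In TGF-β against untreated Scrambled cells, 15 of the 23 hydroxylase, chaperone and secretion genes were higher and 1 lower (median 0.45). Of the 19 assembly and crosslinking genes, 10 were higher and 6 lower (median 0.45), beside a median of 0.02 over all genes. Breakdown and uptake genes went both ways, 8 higher and 5 lower of 16 (median 0.36). Of all genes, 55.5% passed in this comparison. With IL-17 these counts were 1 and 4 of 23, 1 and 4 of 19, and 1 and 2 of 16, where 12.2% of all genes passed.

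Over the 27 CF libraries, the gene whose log2 CPM followed Col3a1 most closely among 13323 genes of at least 1 CPM was Plekho2 (Pearson's r = 0.9913), followed by Atg16l1 (0.9777), Kitl (0.9767), Pkm (0.9758) and Ergic2 (0.9757). For Col1a1 the closest were Colgalt1 (0.9886), which adds galactose to collagen hydroxylysine, Gdf15 (0.9846), Crtap (0.9827), a partner in collagen prolyl 3-hydroxylation, Loxl1 (0.9824), a crosslinking enzyme, and Slc17a9 (0.9812). Among the collagens themselves, r was 0.9571 between Col1a1 and Col1a2, −0.4706 between Col1a1 and Col3a1, and −0.8716 between Col3a1 and Col11a1. The points share 3 tables and 9 groups, so these values describe the pattern across groups only.

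Col3a1 and Col5a2 are neighbours, and they did not move by equal amounts. Both rose in untreated CFs, Col3a1 by 0.97 and 1.45 and Col5a2 by 0.78 and 0.16, while the siR-2 against siR-1 difference was 0.49 for Col3a1 and −0.62 for Col5a2. Of the 3 other protein-coding genes within 500 kb, Gm5269 was too low to be tested. Slc40a1, encoding the iron exporter ferroportin, was at 0.16 and 0.06 untreated without passing, and rose by 0.52 and 0.60 with IL-17 and by 1.14 and 0.99 with TGF-β. Wdr75, a ribosome biogenesis factor, rose by 0.11 with siR-1 untreated (adjusted p = 0.041 in edgeR) and by 0.21 with siR-2 and TGF-β (adjusted p = 0.00728 in edgeR), and the former was lost in 4 of 9 fits with a library left out and in DESeq2 (0.10, adjusted p = 0.0791).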

How the data were processed

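RNA-Seq was done on total RNA from 27 CF libraries and 8 hearts. Per the labels, the authors trimmed reads with cutadapt, aligned them to GRCm38 with HISAT2, assembled and quantified with StringTie and tested with DESeq2. The deposited CF tables hold estimated counts per gene, made by the authors from StringTie coverage, in which the most frequent value among genes seen in 1 library only was 6, and the deposited heart table holds whole counts. No pooled or unmatched column was used, and 0 columns stayed unmapped. Counts were tested as deposited in edgeR 4.0.16 (R 4.3.3, limma 3.58.1) with TMM scaling, filterByExpr, the robust quasi-likelihood fit and Benjamini-Hochberg adjustment over all genes tested. Each siRNA was compared with Scrambled within its table of 9 libraries, stimuli and interactions in a fit of 27 libraries, and KO with Het in 8 hearts. A gene passed at an adjusted p of at most 0.05. Fold thresholds were 2-fold (untreated, hearts) and 1.5-fold (IL-17, and here also TGF-β). The SE is the log2 fold change divided by the root of its F statistic. CPM came from TMM over the 27 CF libraries and, separately, over the 8 hearts. Log2 count ratios were compared by exact two-sided permutation tests.

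All 7 collagens were described. From each gene list up to 3 genes were named by how many tables had both siRNAs passing in the same direction, then by size, and from each likeness search the 5 genes with the highest r. The members and lists were chosen with earlier results of these data known. Alternatives were DESeq2 1.42.0, RLE size factors, no filter or at least 10 in every library, counts divided by 6, pairs of groups alone, a replicate block, the other fold threshold, median ratios, the longest transcript and leaving out each library. The fits were tested on simulated data.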

Additional observations from a re-analysis of the deposited data

Results flagged for a closer look

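The effect of an IAMP siRNA on 3 of the collagens differed by 1.5-fold or more between a stimulus and untreated CFs, as tested by an interaction in edgeR over 27 libraries. For Col5a3 the siR-1 effect was larger with IL-17 by 0.595 (SE 0.0945, adjusted p = 0.000165) and with TGF-β by 0.6555 (SE 0.0947, adjusted p = 2.97e-06), and the siR-2 effect was larger with TGF-β by 1.2756 (SE 0.0952, adjusted p = 2.02e-12), all in edgeR. For Col3a1 the siR-2 effect changed by −0.9726 with TGF-β (SE 0.0551, adjusted p = 3.4e-15 in edgeR), from 1.45 to 0.50. For Col5a2 the siR-1 effect changed by −0.7552 with TGF-β (SE 0.0375, adjusted p = 6.35e-16 in edgeR), from 0.78 to 0.03. The knockdown itself also differed, since the change of 4930523C07Rik was smaller with TGF-β by 0.7301 for siR-1 (SE 0.153, adjusted p = 0.000541) and by 1.0236 for siR-2 (SE 0.157, adjusted p = 3.84e-06) in edgeR. The part of this in the collagen values was not tested, and stimulus and table cannot be told apart. Each of these differences had the same direction in all fits that left out 1 library.

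None of 20 sets of 4 hearts (7 collagens and 3 ratios in each genotype) held a value far enough from the other 3 to be singled out by Dixon's test.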

How the results depend on the processing

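Of 955 member log2 fold changes recomputed under another setting, 935 kept their direction and their side of the threshold, 13 gained the call, 1 lost it and 6 changed sign. Of 2505 recomputed without 1 library, 2438 kept both, 6 gained the call, 27 lost it and 34 changed sign. The cause of these changes was not tested. Under other settings the sign changed for Col1a1 with siR-1 and TGF-β (−0.0021 in DESeq2, −0.0014 with RLE size factors), for the difference between IL-17 and untreated cells of the siR-2 effect on Col1a2 (−0.0021 without a filter) and of the siR-1 effect on Col3a1 (0.0016 with RLE), and for the TGF-β difference of the siR-2 effect on Col5a2 (0.0217 with at least 10 in every library, 0.019 with counts divided by 6). The ratio of Col1a2 to Col1a1, IL-17 against untreated, turned to 0.0088 in Scrambled and 0.0013 in siR-1 cells with medians. None of these passed in either form.

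With the other fold threshold (1.5-fold for 2-fold or the reverse) the counts of collagens past it were 2 and 2 for siR-1 and siR-2 in untreated cells, 0 and 1 with IL-17 and 0 and 0 with TGF-β. Collagens that passed for IL-17 against untreated Scrambled cells numbered 2 in the main fit. They numbered 4 in DESeq2, 3 with a replicate block, 1 without a filter and 1 to 2 without 1 library. Col11a1 also gained its call there with counts divided by 6 (−0.112, adjusted p = 0.0426 in edgeR). For siR-2 against siR-1 with TGF-β the collagens that passed numbered 5 with counts divided by 6 and 4 with a replicate block, against 3. The IL-17 shift of Col3a1 to Col1a1 passed with medians (0.0699, exact permutation p = 0.008) and without Scrambled untreated replicate 3, siR-1 IL-17 replicate 2 or siR-1 untreated replicate 1, and ranged from 0.0326 to 0.0593 without 1 library.

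Leaving out 1 library turned the sign in these ranges, none of which passed. In hearts they ran from −0.158 to 0.0361 for Col1a1, −0.1444 to 0.0393 for Col1a2, −0.1396 to 0.0213 for Col5a1 and −0.1009 to 0.0836 for Col5a2. The heart ratios ran from −0.089 to 0.0255 for Col3a1 to Col1a1, −0.0942 to 0.0011 for Col3a1 to Col1a2 and −0.0078 to 0.0509 for Col1a2 to Col1a1. In CFs the ranges were −0.0096 to 0.0241 for Col1a1 with siR-1 and TGF-β and −0.0201 to 0.0069 for Col5a1 with siR-2, IL-17 against untreated. Of the IL-17 interactions, those of siR-2 on Col1a2 (−0.0101 to 0.0336) and siR-1 on Col3a1 (−0.0366 to 0.0356) and Col5a1 (−0.0102 to 0.0467) changed sign, as did the TGF-β interaction of siR-2 on Col5a2 (−0.0176 to 0.0262). Of the ratios in CFs, Col1a2 to Col1a1 ran from −0.0162 to 0.0014 for siR-1 over all tables, and with IL-17 from −0.0379 to 0.0149 in Scrambled and −0.0276 to 0.0038 in siR-1 cells, and Col3a1 to Col1a1 with IL-17 in Scrambled cells from −0.0306 to 0.0496.

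Calls gained without 1 library were those of Col1a1 with siR-2 and TGF-β (0.11 without Scrambled replicate 3 or siR-2 replicate 2) and, for siR-2 against siR-1 with TGF-β, of Col1a1 without siR-2 replicate 2 and Col5a1 without Scrambled replicate 3. Col11a1 with IL-17 in Scrambled cells gained its call without Scrambled IL-17 replicate 3 (−0.16).

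Same-numbered libraries did not deviate together, with median correlations of −0.0108 in untreated, −0.0391 in IL-17 and −0.0359 in TGF-β libraries, so the numbers were not taken as pairs. With a replicate block 294 results kept their side of the threshold, 3 gained it (Col11a1 with IL-17 in Scrambled, −0.116, Col1a2 with IL-17 in siR-2, −0.0815, and Col5a1 for siR-2 against siR-1 with TGF-β, 0.0987) and 1 lost it (P3h3 with siR-1 and IL-17, −0.0956). For the hearts no paired analysis was possible, because their columns carry no shared number. Levels per kb moved by more than the spread for 63 of 77 values with the longest transcript. In hearts the SE of 0.0914 to 0.131 limits what can be seen, and with 3 to 7 counts Col11a1 was left without a test in the main fit.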
